A study of Mus musculus with 28 samples.

Results

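The control list of accessible regions held 1838 autosomal regions that no region of the db/db list touched, out of 45198 autosomal control regions (4.07%). These control-only regions are described here. They were chosen by position alone: overlapping rows of each list were merged, and a control region on chromosomes 1 to 19 was kept when no merged db/db region overlapped it by 1 bp. Absence from the db/db list is therefore how the regions were selected and is not a result, and it says that no db/db peak was listed there, not that the chromatin was closed. The remaining 43360 autosomal control regions were shared.

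ATAC-seq, in which a transposase inserts adapters into open chromatin, had been run by omni-ATAC on nuclei of Müller cells from mice of 6 months. The db/db mice were homozygous for the Lepr mutation Leprdb, which disables the leptin receptor, on the BKS background, and they become obese and diabetic. Control animals were wild type by the labels, while the study's methods describe wild-type and db/+ animals, and both sexes and colonies of 2 suppliers were used. Müller cells, the main glia of the retina, were enriched on magnetic columns by removing CD11b+ and CD31+ cells and then retaining CD29+ cells, so that other retinal cells, astrocytes and photoreceptors among them, could remain. The labels give 2 biological replicates per genotype, but 1 list per genotype was analysed here, attached to replicate 1. Whether a list was made from 1 replicate or from both is not given in the sources used here. There is thus no replicate check and no p-value, and the 95% Wilson intervals below cover counting error only.

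In the retina, rods and cones turn light into a change in membrane potential through a visual pigment, transducin, a cGMP phosphodiesterase and cGMP-gated channels. Transcription of their genes rests on homeodomain factors such as CRX and OTX2, on the MAF-family factor NRL and on the nuclear receptor NR2E3. CRX and OTX2 recognise sites with the core GGATTA, NRL binds elements that hold TGCTGA, and nuclear receptors bind AGGTCA. Müller cells do not carry out phototransduction. They recycle glutamate and retinoids, buffer potassium and support the neurons.

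The stretches below are examples of promoter bases at control-only regions of photoreceptor genes, chosen because they hold GGATTA. They are RefSeq promoter bases (GRCm38.p6, 5′ to 3′ on the gene's strand) from windows that hold the summit of a control-only region. The 6 were taken, after their values were seen, from promoters with a GGATTA. Their printed bases are upstream of the start and touch no annotated exon. They were picked for their genes, since Nemf, Syne3, Isl1, Hddc3, Gm15348 and Wdr17 met the same conditions. Of the 6, Guca1a, Aipl1 and Samd7 are on the photoreceptor gene lists used below, while Rbp3, Pcare and Rtbdn are on none of them. Promoters under control-only regions of Pde6b, Nr2e3, Tulp1, Fscn2 and Neurod1, which are on those lists, held no GGATTA. In capitals is GGATTA, or TAATCC where it lies on the other strand, and each line gives the gene and position of its stretch.
Guca1a, chr17:47400607-47400726, minus strand: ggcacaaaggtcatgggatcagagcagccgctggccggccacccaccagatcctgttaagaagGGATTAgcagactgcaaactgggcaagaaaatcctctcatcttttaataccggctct
Rbp3, chr14:33953874-33953993, plus strand: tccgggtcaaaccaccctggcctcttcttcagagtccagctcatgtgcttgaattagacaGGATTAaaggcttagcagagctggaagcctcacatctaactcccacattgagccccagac
Aipl1, chr11:72037510-72037629, minus strand: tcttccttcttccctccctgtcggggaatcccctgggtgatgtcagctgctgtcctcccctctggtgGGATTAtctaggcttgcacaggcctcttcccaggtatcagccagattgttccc
Pcare, chr17:71752906-71753025, minus strand: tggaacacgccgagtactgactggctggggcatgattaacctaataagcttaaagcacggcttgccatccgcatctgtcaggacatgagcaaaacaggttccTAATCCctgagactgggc
Samd7, chr3:30746094-30746213, plus strand: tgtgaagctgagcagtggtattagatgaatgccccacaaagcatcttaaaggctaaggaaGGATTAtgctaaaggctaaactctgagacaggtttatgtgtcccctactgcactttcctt
Rtbdn, chr8:84946812-84946931, plus strand: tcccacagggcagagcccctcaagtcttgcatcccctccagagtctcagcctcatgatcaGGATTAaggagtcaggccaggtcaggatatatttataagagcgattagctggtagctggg

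Guca1a encodes a guanylate cyclase activator of photoreceptors, Rbp3 the retinoid-binding protein of the matrix around them, and Aipl1 a chaperone of the phosphodiesterase. Pcare encodes a protein of photoreceptor cilia, Samd7 a regulator that acts with Polycomb proteins in rods, and Rtbdn a retinal riboflavin-binding protein. Counted from the RefSeq start, the marked bases begin 57 bases upstream in Guca1a, 69 in Rbp3, 53 in Aipl1 and 18 in Pcare. They begin 139 bases upstream in Samd7 and 119 in Rtbdn. The presence of GGATTA, its nearness to the start and the lack of a db/db peak follow from how the 6 were selected.

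The control-only regions were weak and narrow. Their share of 4.07% had a 95% interval of 3.89% to 4.25%. Their median deposited signal, a fold enrichment, was 7.0 (1.52 to 20.1) against 10.8 in shared regions, and their median width was 457 bp against 750 bp. A single deposited row made up 72.3% of control-only and 49.6% of shared regions. Together the control-only regions covered 0.918 Mb, and shared regions covered 34.1 Mb. The control regions were ranked by signal and cut into 10 bins of equal number. From the weakest to the strongest bin the control-only share was 10.8%, 10.7%, 7.15%, 4.29%, 2.85%, 1.92%, 1.35%, 1.08%, 0.398% and 0.0664%. The 3 regions of the strongest bin lay in Arl5b, Rnaset2a and Crebbp. Because the share depended so strongly on signal, shared regions were weighted to the same signal bins wherever they are compared with control-only regions below.

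**Figure D1:**
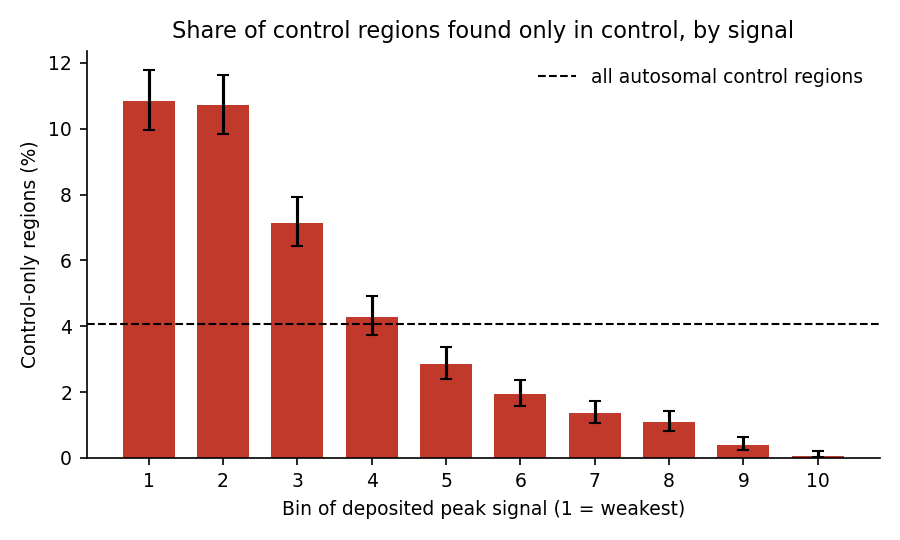
Percentage of autosomal control regions that were control-only (vertical axis) in each of 10 bins of deposited signal (horizontal axis, 1 is the weakest), with 95% Wilson intervals as bars and the share over all regions, 4.07%, as a dashed line. The share falls from 10.8% in the weakest bin to 0.0664% in the strongest.

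The gap to the nearest db/db region was at most 1 kb for 13.4% of control-only regions and at most 5 kb for 42.3%. No comparison with other positions was made. The median gap to the nearest db/db region was 6635 bp (12 to 935176 bp). The gap was at most 500 bp for 155 regions (8.43%) and over 100 kb for 34. Nearest to the threshold on the inside were a region in Rnf130 with a gap of 12 bp and one in Hipk2 with a gap of 44 bp, with signals of 1.52 and 2.05. Just outside were regions in Agpat3 and near Gorasp2, which overlapped a db/db region by 15 and 16 bp, with signals of 4.91 and 1.36. Of the shared regions, 180 (0.415%) were covered by db/db regions over less than 50% of their length. The control-only share of the individual chromosomes ranged from 3.38% to 4.70%.

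Control-only regions lay in introns and between genes more often, and at transcription start sites (TSS) less often, than shared regions of the same signal. A summit within 1 kb of an annotated TSS was found in 293 regions, or 15.9% (14.3% to 17.7%), against 24.8% of signal-weighted shared regions. In each of the 10 signal bins this share was lower in control-only than in shared regions. Summits fell in introns in 907 regions, or 49.3% (47.1% to 51.6%), against 43.5%, and between genes in 563 regions, or 30.6% (28.6% to 32.8%), against 27.6%. Coding exons held 1.14% against 1.26%, and other exons 2.94% against 2.81%, differences that the intervals include. These contrasts depended on the measure used for weighting. With shared regions weighted by 10 bins of the deposited −log10 p instead of signal, their TSS share was 16.5% and their intergenic share 33.4%, so that the TSS difference was within the interval and the intergenic difference turned in direction. By bins of region width the intergenic share of shared regions was 33.9%, again above that of control-only regions.

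**Figure D2:**
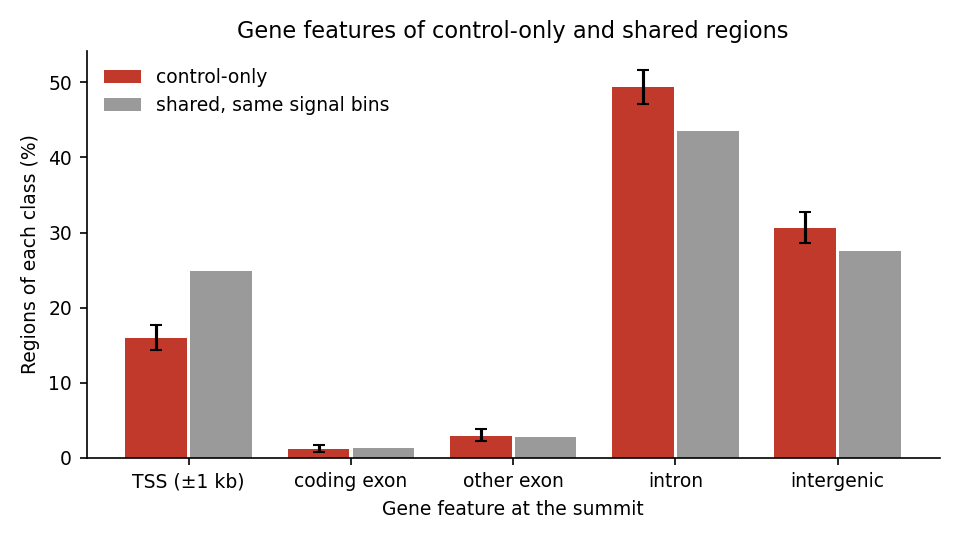
Percentage of regions (vertical axis) with the summit in each gene feature (horizontal axis), for 1838 control-only regions with 95% Wilson intervals (red) and for shared control regions weighted to the same signal bins (grey). Control-only regions stand at 15.9% against 24.8% at a TSS and at 49.3% against 43.5% in introns.

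The median distance from a control-only summit to the nearest TSS was 7898 bp, with quartiles of 2318 and 21334.5 bp, against 6254 bp in signal-weighted shared regions. The excess lay at intermediate distances, since 34.6% (32.5% to 36.8%) were 5 to 20 kb from a TSS against 29.0%. Among regions beyond 1 kb the order was the other way, with a median of 10450 bp against 11338 bp. Weighting by −log10 p also turned the order over all regions, as the median of shared regions was then 9398 bp. Beyond 1 kb, 47.1% of control-only summits were upstream of their TSS, against 46.4%. Of the 293 regions at a TSS, 73.4% were at protein-coding genes (68.0% to 78.1%) against 80.3%. Pseudogenes made up 5.12% (3.13% to 8.27%) against 1.68%, and miRNA genes 3.07% (1.62% to 5.73%) against 1.31%. Where a control-only region lay beyond 1 kb of a TSS and belonged to a protein-coding gene, the gene had a TSS region in both lists in 823 of 1091 cases, or 75.4% (72.8% to 77.9%), against 80.2% for shared regions.

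Genes of photoreceptors held control-only regions more often than genes of Müller cells did. Within 5 kb of 64 genes in 3 lists (rod phototransduction, outer segment and synapse, and photoreceptor transcription factors) lay 213 control regions, of which 51, or 23.9% (18.7% to 30.1%), were control-only, against 4.07% of all. At the rates of their signal bins, that is, with the control-only share of its bin summed over the regions, 12.1 would be control-only, and 8.08 with bins of −log10 p. With the db/db list cut to the size of the control list the count was 83, against 39.7 at the bin rates. That excess was smaller in proportion, though not in number of regions. Rod phototransduction had 22 of 60 (36.7%, 25.6% to 49.3%; 3.45 at the bin rates), spread over 14 of its 22 genes. The transcription factors had 20 of 81 (24.7%, 16.6% to 35.1%; 4.68), and outer segment and synapse genes 9 of 72 (12.5%, 6.72% to 22.1%; 3.94). Of the 51, 22 lay at a TSS (43.1%) and 22 in introns, much as among the 162 shared regions of these genes, where 42.6% lay at a TSS. The lists had been compiled with earlier results of these lists known, so their counts describe the regions and are not independent evidence.

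Müller cell genes had 1 control-only region among 66 control regions (1.52%, 0.268% to 8.10%), where 4.47 corresponds to the signal bins and 1.43 to the −log10 p bins. It lay 108 bp from the start of Rax, a homeobox gene of retinal progenitors and Müller cells, with a signal of 2.53 and a db/db region 297 bp away. Cone genes had 1 of 11 (9.09%, 1.62% to 37.7%; 0.460 at the bin rates), at Gnat2 (cone transducin). Bipolar cell genes had 3 of 40 (7.50%, 2.58% to 19.9%; 2.06), at Prkca, Isl1 and Gpr179. Astrocyte genes had 1 of 21 (4.76%, 0.846% to 22.7%; 0.812), in Pax2. The intervals of the cone, bipolar cell and astrocyte genes include the 4.07% of all regions. Genes of amacrine, ganglion and horizontal cells had 0 of 44, those of endothelial cells and pericytes 0 of 31 and those of microglia 0 of 20. Taken as 3 counts of the total, a count of 0 allows shares of up to 6.82%, 9.68% and 15%, and the upper Wilson limits drawn in the plot of gene lists are 8.03%, 11.03% and 16.1%. At the bin rates these 3 lists would hold 2.67, 2.05 and 0.731, so that a count of 0 does not set them apart from all regions.

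**Figure D3:**
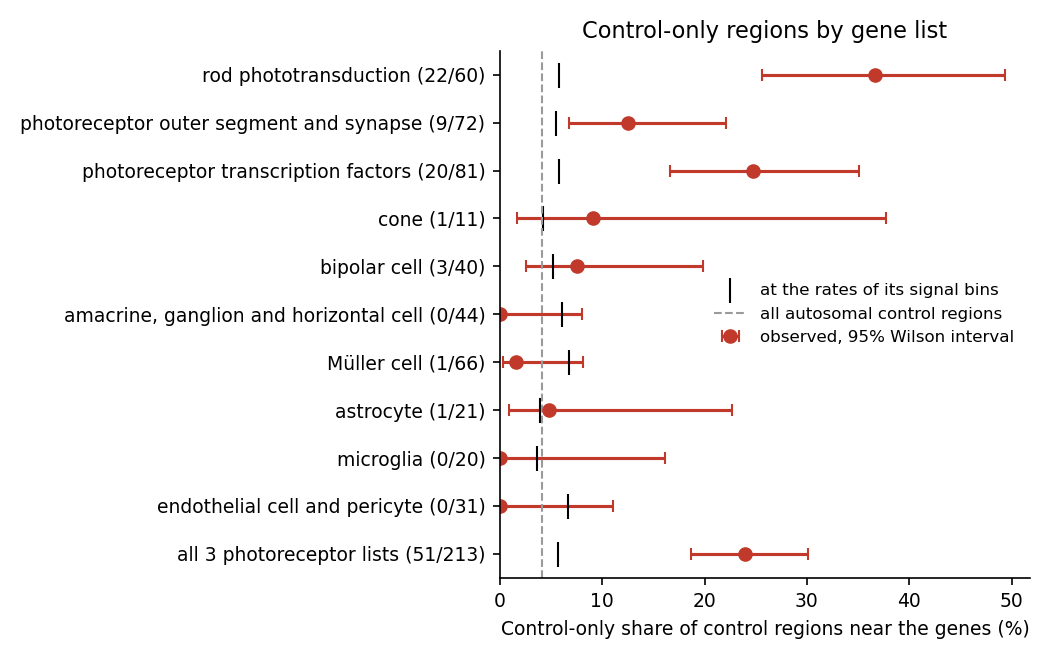
Control-only percentage of the control regions within 5 kb of each list's genes (horizontal axis), with counts in the labels, 95% Wilson intervals as bars, the share at the rates of the list's signal bins as black ticks and the share of all autosomal control regions (4.07%) as a dashed line. The 3 photoreceptor lists lie at 12.5% to 36.7%, and the Müller cell list lies at 1.52%.

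Genes of both cell types had accessible regions in the control list. All 20 Müller cell genes had a control region within 5 kb, and 18 had one at a TSS. Of the 64 photoreceptor genes 60 had a region and 54 one at a TSS. Microglia, which the sort removed, had a TSS region at 2 of 12 genes, and endothelial cells and pericytes at 5 of 12. In bulk chromatin fewer photoreceptors among the sorted db/db cells and less accessibility per cell cannot be told apart, and neither was tested.

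At Gnat1, the α-subunit of rod transducin, both control-only regions lay at annotated starts (chr9:107679503-107679921, signal 5.39, and chr9:107678269-107678665, signal 4.27). A further start of this gene was in a shared region of signal 5.35. For the phosphodiesterase, the start regions of Pde6b (chr5:108388218-108388815, signal 6.66) and Pde6g (chr11:120453325-120453823, signal 6.14) were control-only. Pde6b encodes the β catalytic subunit and Pde6g the inhibitory γ-subunit. Both control regions of Pde6a, the α catalytic subunit, were control-only and intronic, with signals of 8.21 and 5.84. Each of the 3 subunit genes therefore held at least 1 control-only region.

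The same was found further along the cascade. Cnga1, the α-subunit of the rod cGMP-gated channel, had 2 control-only regions, both within 1 kb of an annotated start (signals 7.18 and 4.35), while Cngb1, the β-subunit, had 4 shared regions and 0 control-only ones. Guca1a and its neighbour Guca1b, both guanylate cyclase activators, held 3 consecutive control-only regions over 15.9 kb with signals of 6.16 to 8.14. The start of Guca1a was one of them (chr17:47400323-47400885), 4388 bp from a db/db region. Rgs9, which speeds the recovery from light, had 2 of 4 control-only, but its strongest region, at the start (signal 17.8), was shared. Sag (rod arrestin), Grk1 (a kinase of the rod cascade), Gucy2e, Rdh12 and Slc24a1 had shared regions only, with start regions of signal 8.67 to 15.3. The control-only start regions of the rod cascade were weaker, with signals of 4.27 to 8.14, although the shared start regions of Gnat1 (5.35) and Abca4 (7.35) were in that range.

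Only 8 of the 24 listed outer segment and synapse genes had a control-only region, and 9 of their 72 control regions were control-only. Rom1, Cdhr1 and Impg2 were among the genes with none. The start regions of Prom1 (signal 4.62), Tulp1 (9.05), Fscn2 (6.65) and Aipl1 (7.62) were control-only. Prom1 shapes the disc membranes, Tulp1 acts in transport to the outer segment, and Fscn2 bundles actin. Prph2, which forms the disc rims, kept its start in both lists and had 2 control-only regions of 5, with signals of 4.81 and 5.56.

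Control-only regions were also found at 13 of the 18 listed transcription factors of the photoreceptor network. Neurod2, Esrrb, Ankrd33, Rxrg and Sall3 had none. Most regions were shared at Casz1 (2 of 19 control-only), Thrb (1 of 12), Rorb (2 of 8) and Prdm1 (1 of 5). The control-only region in Prdm1 lay 53 bp from a db/db region. Crx had 2 of 4, in an intron (signal 4.83) and past its 3′ end (8.44), while its start and an upstream region (signal 15.8) were shared. The single control region of Otx2 was control-only, in an intron (chr14:48671544-48671831, signal 4.11), 29201 bp from the nearest db/db region. Nrl had 1 of 3, at an internal start (signal 7.94), and Nr2e3 had 2 of 3 (signals 5.95 and 6.15). Start regions of Neurod1 (signal 9.92), Samd7 (5.33) and Samd11 (16.7) were control-only, and that of Samd11 was the strongest control-only region of the lists (chr4:156255063-156255815). Mef2d, an activity-dependent factor that cooperates with CRX, had 3 of 5 with signals of 2.87 to 5.49. Its paralogue Mef2c had 2 of 4, both at internal starts.

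**Figure D4:**
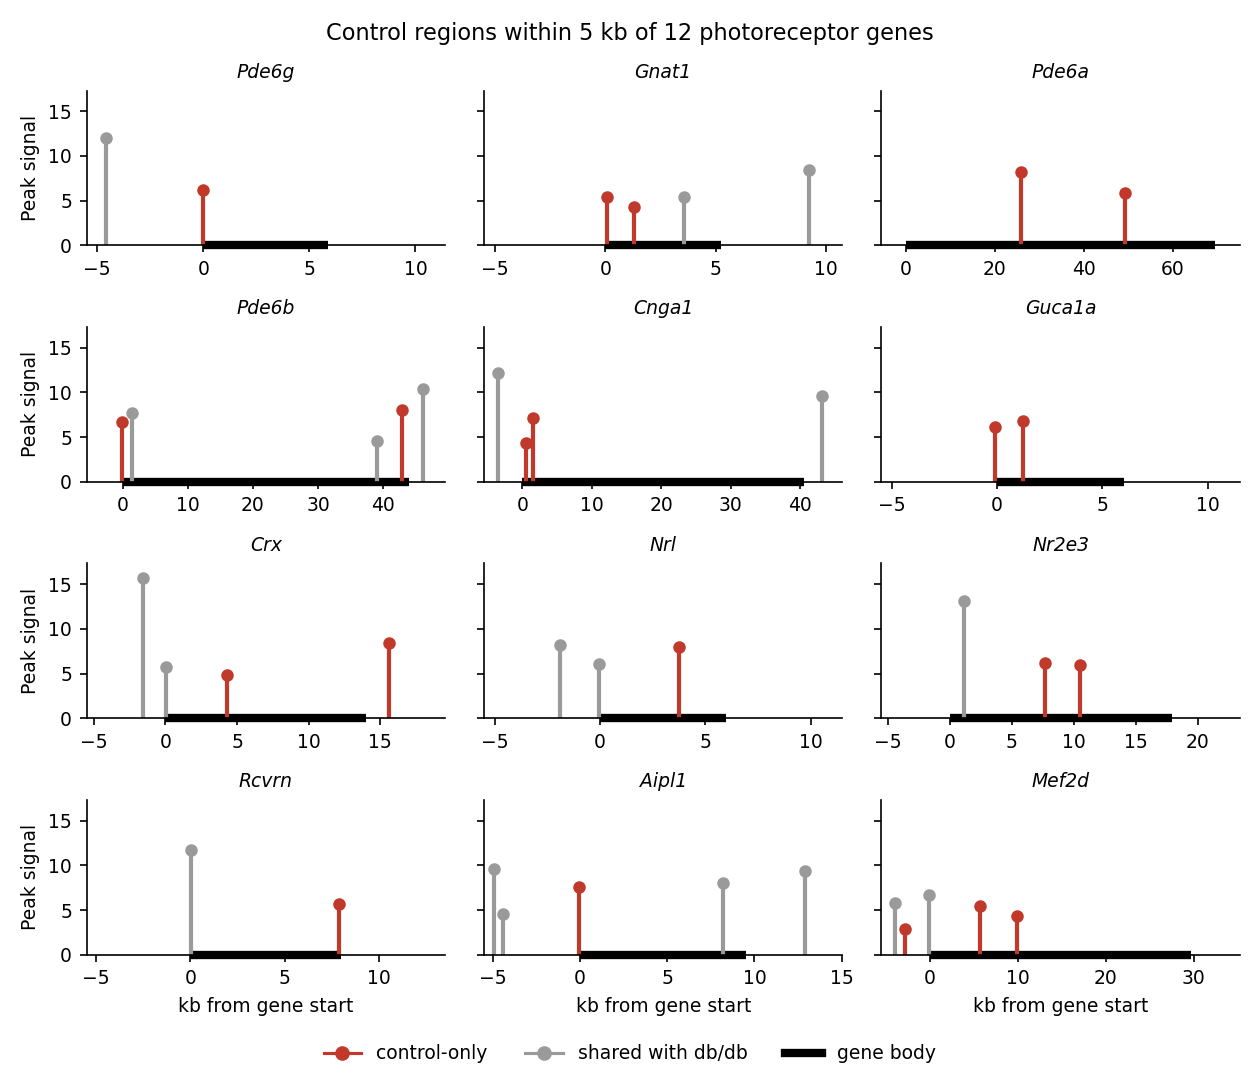
Control regions within 5 kb of 12 genes of the photoreceptor lists, drawn at the distance of the summit from the annotated gene start in the direction of transcription (kb, horizontal axes) with the deposited signal as height (vertical axes). Control-only regions are red, shared regions grey and gene bodies black. The 12 genes were picked from the 35 of 64 list genes with at least 1 control-only region, so genes with shared regions only are not drawn. Pde6b and Mef2d hold regions of both classes, while both regions of Pde6a and both of Guca1a are control-only.

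Assigned to the gene that holds the summit, or else to the gene of the nearest TSS, the control-only regions fell on 1654 genes, of which 156 had 2 or more. This was 1.69% of the 9208 genes with at least 2 control regions, and 164.5 genes would have 2 or more at the rates of the signal bins. Repeated hits were thus no more frequent than the number and signal of regions per gene give. The gene with the most was Phactr1, a regulator of actin and protein phosphatase 1, with 5 of 27 against 1.56 at the bin rates. Its regions had signals of 12.2, 5.58, 8.21, 10.5 and 4.0, and 4 of them lay within 31.1 kb of each other. Dab1, the adaptor of reelin signalling, had 4 of 38 (2.22 at the bin rates), and the cell adhesion gene Dscaml1 had 4 of 16 (1.02). All 4 in Dab1 and all 4 in Dscaml1 were intronic. Both are long genes, of 1125 kb and 327 kb, with many control regions.

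In all 24 genes had 3 or more, and 12 of those with 3 are named here, those of highest summed signal. All genes named by count were chosen for high counts, so values above the bin rates follow from that choice. Ap3b1, a subunit of the AP-3 adaptor of lysosome-related organelles, had 3 of 9 (0.300 at the bin rates) with signals of 8.12, 14.8 and 12.7. Agpat3, an acyltransferase that makes phospholipids with polyunsaturated chains, had 3 of 7 (0.318), which followed each other within 9.58 kb. Prkcz, an atypical protein kinase C of cell polarity, had 3 of 7 (0.250), Usp6nl, a GTPase-activating protein of Rab proteins, 3 of 7 (0.246), and Epb41, the membrane skeleton protein 4.1R, 3 of 6 (0.295). The control-only regions of these 5 genes were intronic, except for 1 at a TSS in Agpat3 and 1 in Usp6nl. The pseudogene Gm29068 had 3 of 4 and Zfp385b, a zinc finger gene, 3 of 7. Rasal2 had 3 of 9, Pitpnc1 and Tspan5 3 of 16, Itpr2, an inositol trisphosphate receptor, 3 of 17 and Frmd4a 3 of 19.

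Of the 9208 genes with at least 2 assigned control regions, 16 had control-only regions alone, 2 in each. Of these 16 genes 8 were protein-coding (Gm49450, Ntsr1, Nde1, Pde6a, Guca1a, Rbp3, Cnga1 and Rtbdn). The set was looked at after the values were seen. No number at the bin rates is given for it, so whether 16 is more than signal gives is not known. Pde6a, Guca1a, Rbp3, Cnga1 and Rtbdn are genes of the photoreceptor and its surrounding matrix. At Rbp3 the pair lay at the start (chr14:33953769-33954137, signal 6.42) and 3707 bp upstream (signal 6.22), and the nearest db/db region was 5150 bp away. At Rtbdn the pair had signals of 4.02 and 4.61, with no db/db region within 8012 bp. Ntsr1 encodes a neurotensin receptor and Nde1 a dynein regulator.

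Control-only regions neighboured each other more often than shared regions neighboured them. The region before or after was control-only for 248 members, or 13.5% (12.0% to 15.1%), against 7.23% of signal-weighted shared regions. With a limit of 50 kb on the neighbour the shares were 10.8% and 5.85%. With db/db regions cut to the control number they were 27.9% and 22.4%, closer to each other in proportion. In chains with gaps of at most 50 kb stood 369 regions (20.1%), in 140 chains of 2, 23 of 3 and 5 of 4, and 37.9% stood in chains with db/db regions cut in that way. The 5 longest were at Phactr1 (31.1 kb, with 1 shared region among them), Podxl (67.6 kb), Slc38a3 to Rbm5 with Gnat1 (72.6 kb), Gm9932 (74.3 kb) and Sdc4 to Pigt (92.0 kb). In 8 places 3 control-only regions followed each other with no shared region between them. These were at Gm29068, Agpat3, Guca1b and Guca1a, Vldlr to Kcnv2, Gm14278 and Ndrg3, Dclk1, Unc5d and Dscaml1. No number at the bin rates was computed for the chains or for these places, so whether they are more than signal gives is not known. Kcnv2 encodes a potassium channel subunit of photoreceptors.

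The strongest control-only regions were not at listed photoreceptor genes, with 1 exception. They lay in introns of Arl5b (chr2:15075867-15076251, signal 20.1), Rnaset2a (chr17:8120789-8121417, 19.9) and Crebbp (chr16:4102755-4103135, 19.2), which encode a small GTPase, a ribonuclease and a histone acetyltransferase. Next were regions in Cnpy3 (18.1), Gm4756 (18.0), near Gm12789 (17.4), in Grip1 (17.2), at Mir6928 in Atp6v0a1 (16.9) and in Dleu7 (16.8). The exception was the start of Samd11 (16.7), which encodes a partner of SAMD7. The other start regions of highest signal were at Sugp2 (16.1), Btbd10 (15.5), Gm44340 (15.2), Gigyf2 (14.3), Tctex1d1 (14.1), 1700001L05Rik (14), Gm15348 (13.8) and Gm45716 (13.7). The nearest db/db region was between 5805 and 50767 bp away from these 18 regions.

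Near the mutated gene, Lepr, no control region lay within 5 kb. Within 1000 kb of it 5 of 51 control regions were control-only (9.80%).

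Promoters under control-only regions held the core of CRX sites more often than promoters under shared regions did. A RefSeq promoter (250 bases before to 50 after the start) held the summit in 60 control-only and 7731 shared regions. These 60 compare with 293 control-only regions at a TSS. Sequence outside promoters and exons was not searched. For most of the 1838 control-only regions, in introns and between genes, the presence of these strings is therefore not known. GGATTA, searched on both strands, was present in 19 of the 60, or 31.7% (21.3% to 44.2%), against 6.10% of signal-weighted shared regions and 7.06% of all 31396 promoters of the table. The same letters in another order, GAGTTA, were present in 7 of 60 (11.7%, against 6.43%). TGCTGA, of NRL sites, was in 20 of 60 or 33.3% (22.7% to 45.9%), against 14.9% and against 19.4% of all promoters, and its reordered form TCGTGA in 3 of 60 (5.00%, against 3.14%). AGGTCA, of nuclear receptors, was in 11 of 60 (18.3%, 10.6% to 29.9%, against 11.3%), a share that the interval includes, and ACGGTA in 3 of 60 against 3.05%. None of these strings contains another.

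The promoters of control-only regions were also poorer in G and C, with a median of 53.8% against 62.0% in signal-weighted shared regions, and a median of 11 against 20 CG pairs. With shared promoters weighted by 5 bins of GC content instead, 6.98% held GGATTA. The nearest GGATTA stood a median of 46.5 bp from the summit of the control-only region, and in 16 of the 19 it was within 100 bp. In 18 it was upstream of the start, and 10 of the 19 also had TGCTGA. The 19 promoters were those of the 6 genes printed above and of Samd11, Cnga1, Rpgrip1, Isl1, Gsc2, Nemf, Syne3, Grip2, Hddc3, Wdr17, Cfap77, Gm15348 and C130074G19Rik. Rpgrip1 encodes a protein of the photoreceptor connecting cilium. Gsc2 had 3 copies, while Aipl1, Samd11 and Nemf had 2. Exonic windows were 100 bp to each side of the summit with at least 50 exonic bases. GGATTA was present there in 34 of 219 control-only regions, or 15.5% (11.3% to 20.9%), against 2.50% of signal-weighted shared windows. Its reordered form GAGTTA was also more frequent, in 12 of 219 (5.48%, 3.16% to 9.33%, against 2.92%). TGCTGA was in 16.0% (11.7% to 21.4%) against 12.1%, and AGGTCA in 9.13% (5.99% to 13.7%) against 8.60%, shares that the intervals include. With db/db regions cut to the number of the control list the GGATTA difference in exonic windows fell from 13.0 to 5.57 percentage points. In promoters it fell from 25.6 to 14.5. These windows share bases with some of the promoters and are no separate evidence. A match is a run of letters and shows no binding.

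**Figure D5:**
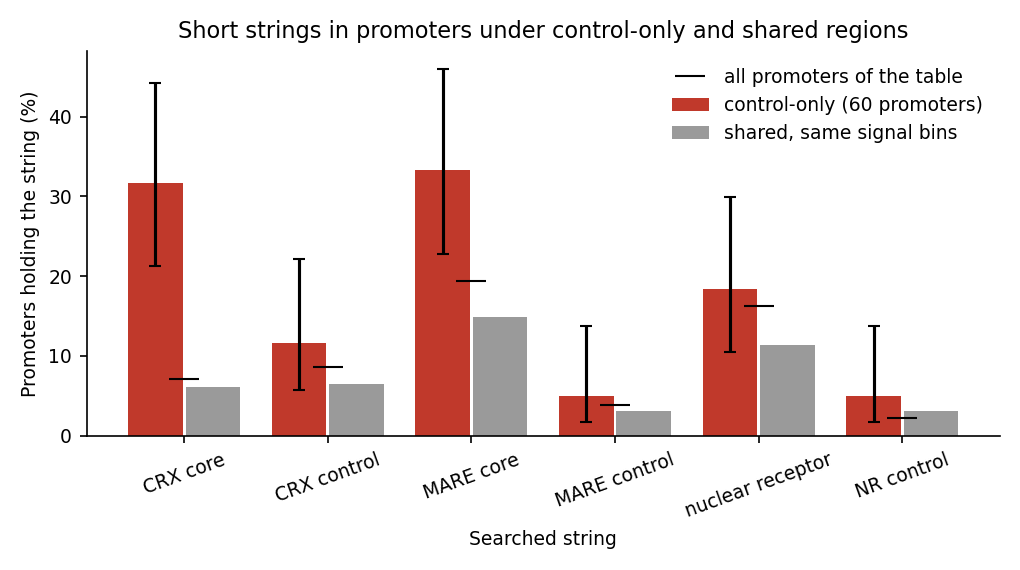
Percentage of promoters (vertical axis) that hold each searched string (horizontal axis: the CRX core, the MAF recognition element (MARE) core and the nuclear receptor (NR) core, each followed by its letters in another order as control), for 60 control-only regions with 95% Wilson intervals (red), shared regions weighted to the same signal bins (grey) and all promoters (black ticks). The CRX core stands at 31.7% against 6.10% and the MARE core at 33.3% against 14.9%.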

How the data were processed

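The members and gene lists were chosen with earlier results of these data known. ATAC-seq of Müller cells was used, as 1 peak list per genotype with positions in mm10 per the submitters' processing notes. For each peak the authors deposited its score (540 to 1000 in both lists). The deposited signal is a ratio (fold enrichment). The authors also deposited −log10 of the p and q of each peak. The score of 540 is also the value that an irreproducible discovery rate of 0.05 has on that method's scale, but whether it was used, the aligner, the peak caller, its threshold and read depths are not given in the sources used here. Control counts were 81757 rows, or 79824 on autosomes, and db/db counts 109995, or 107634. Scale differences between lists are unknown, so values were compared within the control list.

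Overlapping rows were merged to 1 region, with the row of highest signal giving summit and values, in Python 3.11.15 (numpy 2.4.6, pandas 2.3.3, matplotlib 3.10.9), which left 45198 control and 63598 db/db autosomal regions. Features and TSS came from GENCODE M21, on which 33.1% of control summits lay within 1 kb of a TSS against 9.35% after a shift of 5000 bp. Shared regions were averaged within 10 bins of signal and weighted by the number of control-only regions per bin. The number at bin rates sums each region's control-only rate in its bin. Promoter sequence was RefSeq GRCm38.p6, matched where the window held the summit (planned by gene name), and equalled the GENCODE transcript sequence at 538476 of 538476 bases in both. Exonic sequence came from transcripts. Named were the 15 genes with most control-only regions, the 10 strongest regions and the 10 strongest at a TSS, the 5 longest chains, list genes with a control-only region, Lepr and regions nearest the overlap threshold; some genes under this rule are not reported here. Steps were tested on simulated data. No p-value was computed, as each genotype has 1 list.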

Additional observations from a re-analysis of the deposited data

How the results depend on the processing

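Of 350 values under 19 alternative settings, 257 stayed within the 95% interval or within 1.5 times the count, 90 moved beyond and 3 turned in direction; the causes were not tested. Differences are control-only minus signal-weighted shared regions. The turned values were the intergenic difference (-2.75 percentage points by bins of −log10 p, -3.26 by bins of width, 3.05 as reported) and the TSS distance (-1500 bp by −log10 p, 1644 bp as reported). By −log10 p the TSS difference was -0.566 and the intron difference 3.18 points, and by width the TSS difference was -3.78 points and the distance 433 bp. Without weighting they were -17.9 (TSS) and 14.1 points (intron) and 2591 bp. With protein-coding starts alone the distance difference was 2925.5 bp.

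With db/db regions cut to the number of the control list by −log10 p, 5915 regions (13.1%) were control-only, 909 genes had 2 or more and the photoreceptor lists stood at 39.0%, or 83 of 213 against 39.7 at bin rates. The differences were then -11.2 (TSS), 6.65 (intergenic), 5.57 (GGATTA, exonic; 13.0 as reported) and 14.5 points (GGATTA, promoters; 25.6 as reported) and 4401 bp, and 27.9% against 22.4% had a control-only neighbour. With 50% coverage required, the control-only share was 4.46%. With db/db regions within 500 bp also counted it was 3.72%, the TSS difference -10.5 points and the Müller cell share 0, as it was with gene bodies alone.

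The 5 settings chosen after seeing the data were promoter overlap, bins of GC content, bins of −log10 p and of width for gene lists, and a limit on neighbour distance. No paired analysis was possible because each genotype has 1 list and no result comes from a test. Leaving out a replicate was not possible for the same reason. Depth limits what can be said of weak regions, where most control-only regions lay.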
